A study of Homo sapiens with 60 samples.

Results

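The transcripts of 9 amino acid transporters were followed in HT29 cells treated with extracts of medicinal herbs. The 9 genes are SLC7A5, SLC3A2, SLC7A1, SLC1A5, SLC1A4, SLC38A1, SLC38A2, SLC6A9 and SLC43A1. They were chosen by symbol, and each symbol matched 1 of the 60675 genes in the deposited table. All 9 were among the 16763 genes that passed the low-count filter. HT29 is an established human colorectal adenocarcinoma line. The series holds 60 RNA-seq libraries in 25 groups, all collected after 24 h of treatment. Vehicle (DMSO, n = 3) is the only untreated group. The multi-herb formulas Sayeok-tang and Bojungikgi-tang were given as water extracts, with 3 and 2 libraries at each dose. The ethanol extracts, with 3 libraries at each dose, were of Scutellariae Radix (skullcap root), Pinelliae Tuber, Zingiberis Rhizoma (called dried ginger here) and Zingiberis Rhizoma Recens (fresh ginger). These 6 extracts were given at 500 µg/mL (high), 100 µg/mL (medium) and 20 µg/mL (low). Coptidis Rhizoma (320, 64 and 12.8 µg/mL) and Zizyphi Fructus (jujube; 500, 100 and 20 µg/mL) have 1 library per dose and no replicate. Nothing in the labels states that replicates were cultured separately. P-values therefore measure the spread between libraries, which may be technical.

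Amino acid transporters set how fast a cell takes up leucine, glutamine, arginine and other building blocks of protein. Many tumour cells, those of the colon among them, carry high levels of the leucine exchanger SLC7A5 and the glutamine exchanger SLC1A5. Several of these genes are known targets of ATF4, a transcription factor made when kinases that sense amino acid shortage or other stress phosphorylate the translation factor eIF2. SLC7A5 (LAT1) exchanges large neutral amino acids and reaches the membrane bound to the heavy chain SLC3A2 (CD98hc). SLC7A1 (CAT1) carries arginine and lysine. SLC1A5 (ASCT2) and SLC1A4 (ASCT1) exchange small neutral amino acids, SLC1A5 glutamine in particular. SLC38A1 and SLC38A2 (SNAT1 and SNAT2) bring in neutral amino acids with sodium. SLC6A9 (GlyT1) carries glycine, and SLC43A1 (LAT3) lets branched-chain amino acids diffuse in without exchange.

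In GENCODE 29 (GRCh38) the heavy chain and the cationic and large neutral carriers are SLC7A5 (ENSG00000103257) at chr16:87830023-87869488 (−), SLC3A2 (ENSG00000168003) at chr11:62856102-62888875 (+), SLC7A1 (ENSG00000139514) at chr13:29509410-29595688 (−) and SLC43A1 (ENSG00000149150) at chr11:57484534-57515786 (−). The exchangers of the SLC1 family are SLC1A5 (ENSG00000105281) at chr19:46774883-46788594 (−) and SLC1A4 (ENSG00000115902) at chr2:64988477-65023865 (+). The sodium-coupled carriers are SLC38A1 (ENSG00000111371) at chr12:46183063-46270017 (−), SLC38A2 (ENSG00000134294) at chr12:46358189-46372867 (−) and SLC6A9 (ENSG00000196517) at chr1:43991500-44031467 (−). All 9 are protein-coding, and a count covers all exons of a gene. Reads of SLC7A5 (mean over the 60 libraries 311 CPM) could be shared with its copies SLC7A5P1 (0.369 CPM) and SLC7A5P2 (0.201 CPM). CPM is the count scaled to a common library total.

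The promoters are shown because 8 of the 9 genes rose together under high-dose Scutellariae Radix. ATF4 is known to bind composite sites of the form TGATGNAA, and CACGTG is the E-box read by MYC and TFEB. RefSeq windows (GRCh38.p14) of 300 bases, from 250 bases before to 50 bases after a start site, were found for all 9 genes, 16 windows in all. TGATGNAA, searched on both strands, occurred in 5 windows of 5 genes, and in 3.617% of all 35114 windows. CACGTG, the same on both strands, occurred in 3 windows of 3 genes, and in 7.256% of all windows. A match is a run of letters, not a bound site. The TGATGNAA matches follow on the gene's strand, with the match in capitals. It is reversed in SLC3A2 and SLC1A4.
SLC3A2: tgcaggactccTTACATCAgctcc
SLC7A1: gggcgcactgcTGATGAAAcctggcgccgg
SLC1A5: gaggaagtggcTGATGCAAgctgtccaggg
SLC1A4: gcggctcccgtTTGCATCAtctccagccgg
SLC38A1: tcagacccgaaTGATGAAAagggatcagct
These stretches lie at chr11:62881725-62881748 (+), chr13:29595663-29595692 (−), chr19:46784893-46784922 (−), chr2:64989381-64989410 (+) and chr12:46266502-46266531 (−). Those of SLC3A2, SLC1A5, SLC1A4 and SLC38A1 belong to a start site that is not the first listed for the gene. The CACGTG matches are these.
SLC7A5: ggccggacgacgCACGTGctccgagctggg
SLC1A5: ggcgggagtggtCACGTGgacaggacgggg
SLC43A1: cagcgggcgagtCACGTGcgcgtgaaactc
They lie at chr16:87869620-87869649 (−), chr19:46787326-46787355 (−) and chr11:57515797-57515826 (−). Neither motif lay in the windows of SLC38A2 and SLC6A9.

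Library totals ran from 18.0 to 35.8 M counts (median 24.5 M). Of the 54 replicated libraries, 3 stood apart by over 9 median absolute deviations, a limit set after the values were seen. Vehicle 1 had 7.20% of its counts in ribosomal protein genes, Scutellariae Radix low 3 had 9.35%, and Pinelliae Tuber high 2 had 14.3% in mitochondrial genes, against medians of 5.62% and 7.27%. Of 9 colon epithelial markers, all had a mean of at least 1 CPM. Their summed level ran from 9221 to 14930 CPM. Fibroblast markers summed to 1.56 to 3.42 CPM and endothelial markers to 0.471 to 2.87 CPM, and the 6 leukocyte markers to 1075 to 2310 CPM. Nearly all of the latter was LYZ, lysozyme, and PTPRC and CD3E had means under 0.1 CPM. Vehicle carries sample codes of its own, so a difference from vehicle and a difference between code sets cannot be told apart. Comparisons of doses of 1 extract, of the gingers with each other and of Scutellariae Radix with Pinelliae Tuber stay within a code set.

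In vehicle the transcripts spanned a wide range. Per kilobase of exon, SLC1A5 was highest at 254 CPM per kb (range 252 to 259, n = 3). SLC7A1 followed at 75.0 (63.4 to 81.1) and SLC7A5 at 60.9 (59.0 to 61.9) CPM per kb. SLC38A1 (31.0 to 39.1 CPM per kb) and SLC3A2 (33.6 to 37.4 CPM per kb) overlapped and could not be ordered. SLC38A2 stood at 25.0 and SLC43A1 at 9.95 CPM per kb. SLC1A4 was at 1.25 and SLC6A9 at 0.0974 CPM per kb. The scale counts all annotated exons of a gene, which need not all be used in these cells.

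**Figure D1:**
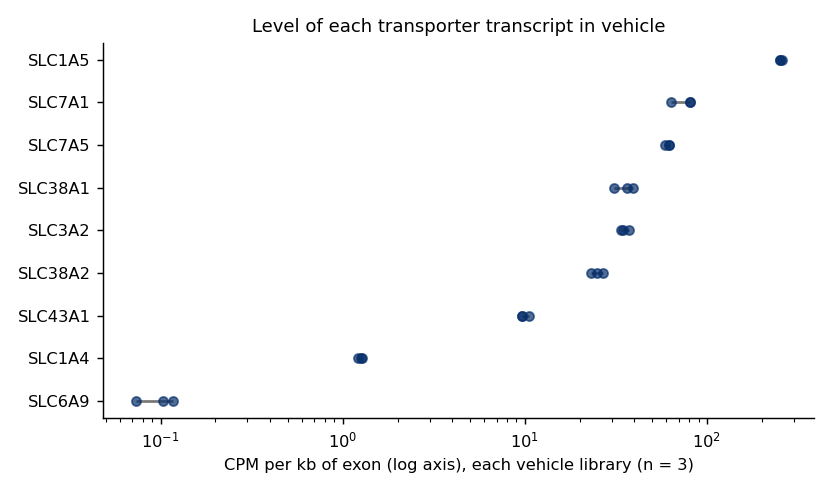
Level of each transcript in the 3 vehicle libraries (points), in CPM per kb of exon on a log axis; the grey line spans the libraries. SLC1A5 is at 254 CPM per kb and SLC6A9 at 0.0974, and only SLC38A1 and SLC3A2 overlap.

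Scutellariae Radix raised most of the transporters. At the high dose 8 of the 9 rose against vehicle and SLC43A1 fell, where 11.4% of all genes tested rose and 12.1% fell (edgeR, adjusted p under 0.05 over all genes). SLC7A5 stood at 415, 421 and 417 CPM in the high-dose libraries and at 279.7, 294 and 293 CPM in vehicle. Its partner SLC3A2 stood at 280.5, 275 and 259.6 against 194, 179.6 and 174 CPM. Neither gene's groups overlapped. On the log2 scale SLC7A5 was higher by 0.54 (SE 0.083, edgeR adjusted p = 3.18e-06) and SLC3A2 by 0.58 (SE 0.082, edgeR adjusted p = 6.00e-07), a rise of 1.45-fold and 1.5-fold. SLC7A1, the arginine carrier, was at 776, 787 and 797 CPM against 488, 624 and 619 in vehicle, a log2 difference of 0.46 (SE 0.11). Its lowest vehicle value is that of vehicle 1, and without the 3 libraries that stood apart the difference was 0.37.

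Among the exchangers and sodium-coupled carriers the high dose gave larger folds. SLC38A2 was at 312, 315 and 310.1 CPM against 153, 165 and 178 in vehicle, a rise of 1.90-fold (log2 0.93, SE 0.11, edgeR adjusted p = 1.29e-08). SLC38A1 was at 544, 559.7 and 553 against 310.1, 365 and 391 CPM, a rise of 1.56-fold. For both genes all treated libraries lay above all vehicle libraries. SLC1A4 went from 8.79, 8.82 and 8.41 CPM to 15.8, 16.2 and 15.0 CPM, a rise of 1.82-fold (log2 0.87, SE 0.070). SLC1A5, the most abundant of the 9, moved least among those that rose, from 839, 863 and 842 to 929, 950.3 and 933 CPM (log2 0.15, SE 0.050, edgeR adjusted p = 0.0222). Leaving out vehicle 2, vehicle 3, high 2 or high 3 of the extract each ended that call, at log2 values of 0.14 to 0.16.

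SLC6A9, the glycine carrier, had the largest fold of the 9 and the fewest counts. It stood at 0.376, 0.53 and 0.6 CPM in vehicle, 8 to 19 counts per library, and at 1.95, 2.41 and 2.67 CPM (39 to 73 counts) at the high dose. That is 4.63-fold (log2 2.21, SE 0.28, edgeR adjusted p = 7.19e-08), and the groups did not overlap. SLC6A9 shares its locus with CCDC24 on the opposite strand, whose mean level over the 60 libraries was 2.67 CPM. The kit keeps strand, but the sources used here do not give the strand setting of the counting. CCDC24 itself was at 2.87, 2.46 and 1.80 CPM in vehicle and at 2.60, 2.37 and 2.75 CPM at the high dose, which overlap. SLC43A1 fell from 37.3, 34.2 and 33.9 CPM to 28.7, 31.3 and 30.7 CPM (log2 −0.20, SE 0.069, edgeR adjusted p = 0.0266). Its call ended without vehicle 1 or without high 1 of the extract (log2 −0.16 to −0.14), and without the 3 libraries that stood apart the adjusted p was 0.0553.

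**Figure D2:**
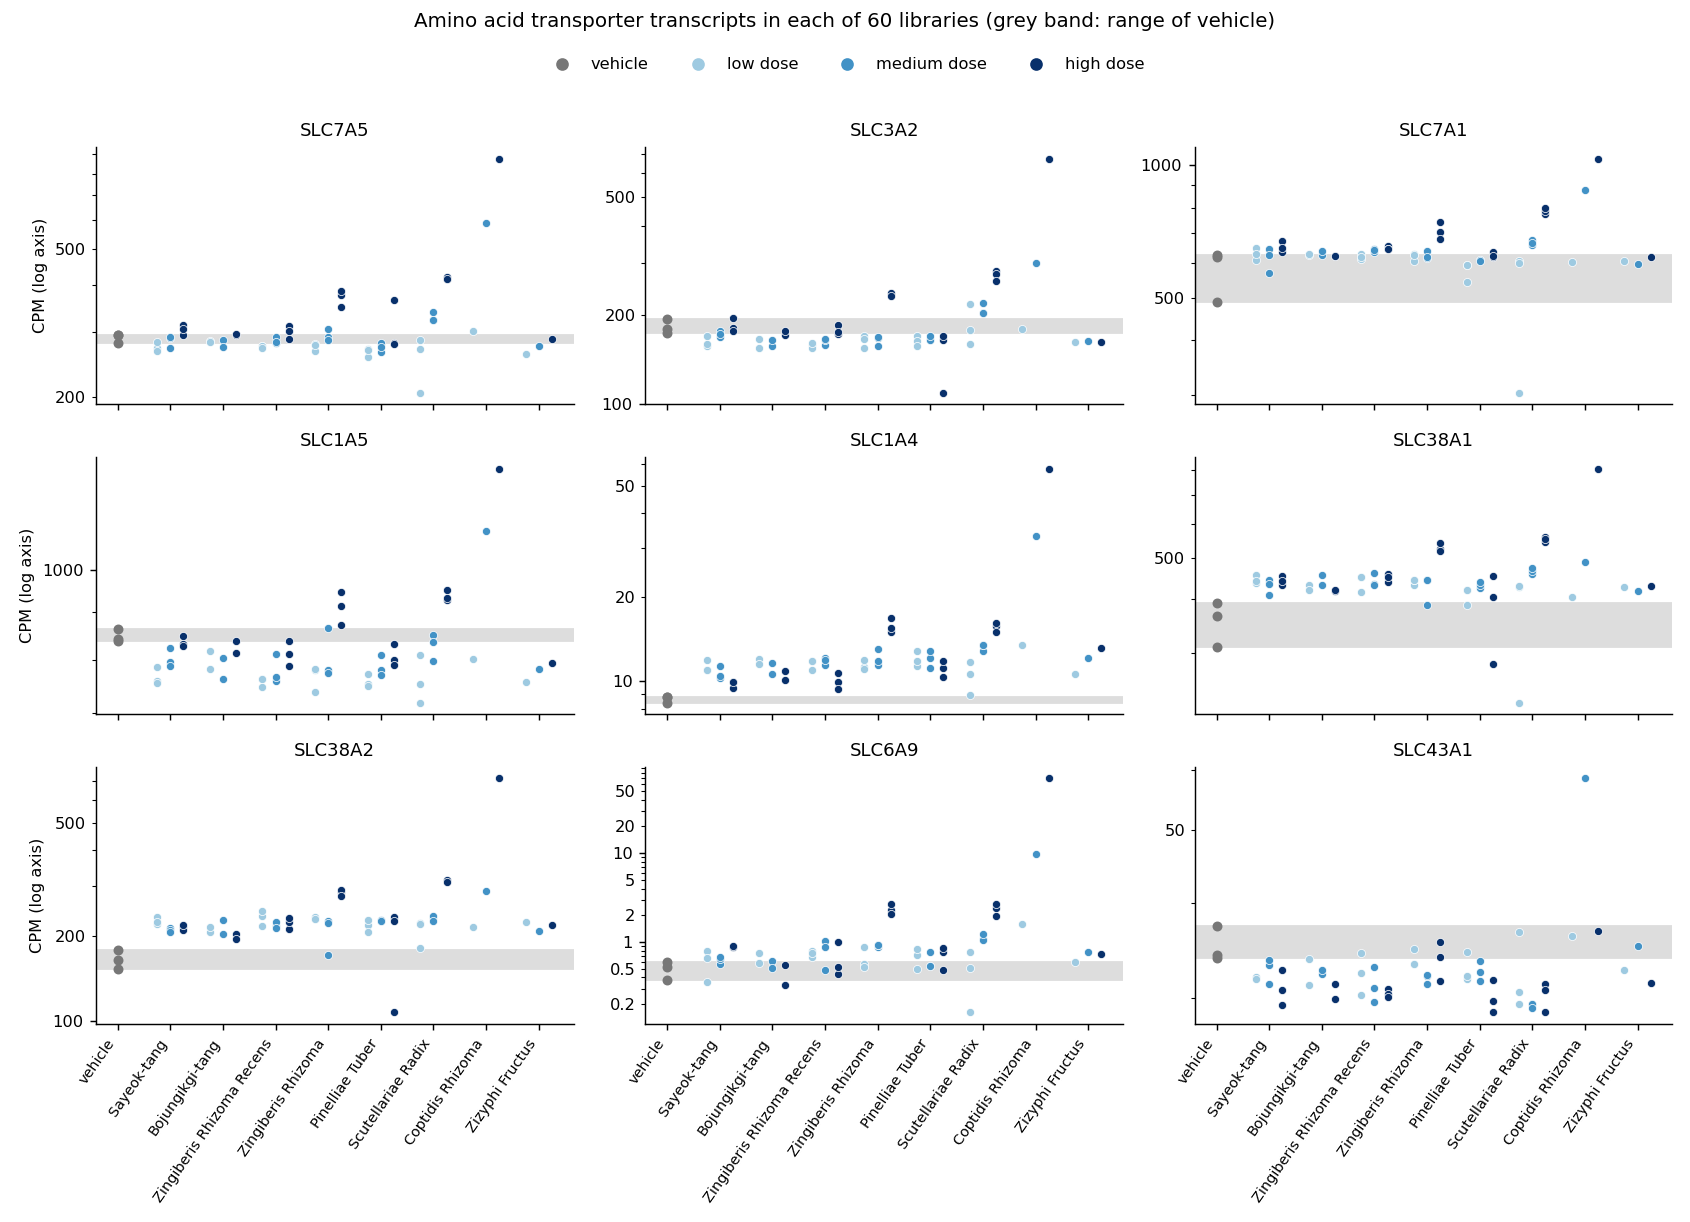
CPM of each transcript in each of the 60 libraries (points, log axis), by extract and dose, with the range of vehicle as a grey band. High-dose Zingiberis Rhizoma and the medium and high doses of Scutellariae Radix and Coptidis Rhizoma lie above the band for both SLC7A5 and SLC3A2. SLC38A1 lies above it in these and in most other treated groups. SLC43A1 exceeds it in the Coptidis Rhizoma medium library alone.

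The skullcap response was graded by dose. Mean levels of the 8 transporters other than SLC43A1 went up from low to medium to high dose, an order that was not counted over all genes. At the medium dose SLC7A5 was at 339, 322 and 322 CPM and SLC3A2 at 219, 203 and 203 CPM, above all vehicle libraries but not past the test (edgeR adjusted p = 0.193 and 0.168). There 4 of the 9 rose against vehicle, where 4.90% of all genes rose: SLC1A4 (log2 0.60), SLC38A1 (0.38), SLC38A2 (0.47) and SLC6A9 (1.12). SLC43A1 fell (−0.28), where 4.64% of all genes fell. Leaving out vehicle 1 ended the calls of SLC38A1, SLC6A9 and SLC43A1. The call of SLC38A1 also ended without medium 2 or medium 3 of the extract, and that of SLC6A9 without medium 3. SLC38A1 was at 0.30 to 0.38 in those fits, SLC6A9 at 0.99 to 1.04 and SLC43A1 at −0.21. Without the 3 libraries that stood apart, 8 of the 9 were called at the medium dose, while calls over all genes went from 1598 to 3024.

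High against low dose compares libraries of 1 code set and needs no vehicle. There 8 of the 9 rose, where 10.7% of all genes rose. SLC7A5 was at 285, 270.3 and 206 CPM at the low dose, a log2 difference of 0.74 (SE 0.084) to the high dose. SLC7A1 was at 607, 599.8 and 304 CPM at the low dose (log2 0.67, SE 0.11), and SLC38A1 at 427, 431 and 230.1 CPM (0.64, SE 0.11). The third value of each, far below the other two, is the low-dose library that stood apart. Without the stand-apart libraries the differences were 0.63 for SLC7A5, 0.43 for SLC7A1 and 0.41 for SLC38A1, and all 8 calls held. SLC3A2 (0.57), SLC1A5 (0.32), SLC1A4 (0.60), SLC38A2 (0.61) and SLC6A9 (2.26) made up the rest, and SLC43A1 was at −0.07 (SE 0.070, edgeR adjusted p = 0.53). A fit of the 6 libraries alone called 4 of the 9 and lost SLC3A2, SLC7A1, SLC1A5 and SLC38A1. Calls over all genes in either direction then went from 3765 to 310.

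Dried ginger also raised most of the transporters at its high dose. Against vehicle 6 of the 9 rose, where 6.79% of all genes rose. SLC7A5 was at 377, 386 and 351 CPM (log2 0.34, SE 0.083) and SLC3A2 at 232, 236 and 231 CPM (0.33, SE 0.082). SLC38A2 reached 285, 291 and 276 CPM (0.76, SE 0.11) and SLC38A1 522, 539.7 and 518 CPM (0.55, SE 0.11). SLC1A4 reached 15.1, 16.9 and 15.5 CPM (0.85, SE 0.070) and SLC6A9 2.32, 2.09 and 2.71 CPM (2.18, SE 0.28). All these values lay above every vehicle library. SLC7A1 (706, 743 and 681 CPM) and SLC1A5 (914, 948 and 873 CPM) also lay above vehicle, but with log2 differences of 0.28 and 0.08 they did not pass the test. SLC43A1 overlapped vehicle at 34.0, 35.6 and 31.5 CPM. Each of the 6 calls held with any 1 library left out.

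Between the high and low doses of dried ginger 5 of the 9 rose, where 2.30% of all genes rose. SLC7A5 went from 278, 267 and 277 CPM to the values above, 1.38-fold (log2 0.46, SE 0.083, edgeR adjusted p = 0.000132). SLC3A2 went from 169, 154 and 165 CPM, 1.46-fold (log2 0.54, SE 0.082, edgeR adjusted p = 7.32e-06). Both chains of the leucine exchanger thus rose, with no overlap of libraries. SLC1A5 (780.4, 738 and 782 CPM at the low dose; log2 0.28), SLC1A4 (11.3, 11.0 and 11.9 CPM; 0.50) and SLC6A9 (0.566, 0.883 and 0.531 CPM; 1.85) rose as well. SLC7A1 (0.22), SLC38A1 (0.29) and SLC38A2 (0.33) had all high-dose libraries above all low-dose ones but edgeR adjusted p-values of 0.343, 0.142 and 0.0854. Without the 3 libraries that stood apart, none of which is a ginger library, these 3 were called too, 8 of 9 in all, at log2 values of 0.22, 0.28 and 0.32. Calls over all genes then went from 727 to 1795. At the medium dose SLC38A2 was at 226, 222 and 171 CPM and SLC1A5 at 780.4, 775 and 866 CPM, so the third library departed from the others in both genes.

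**Figure D3:**
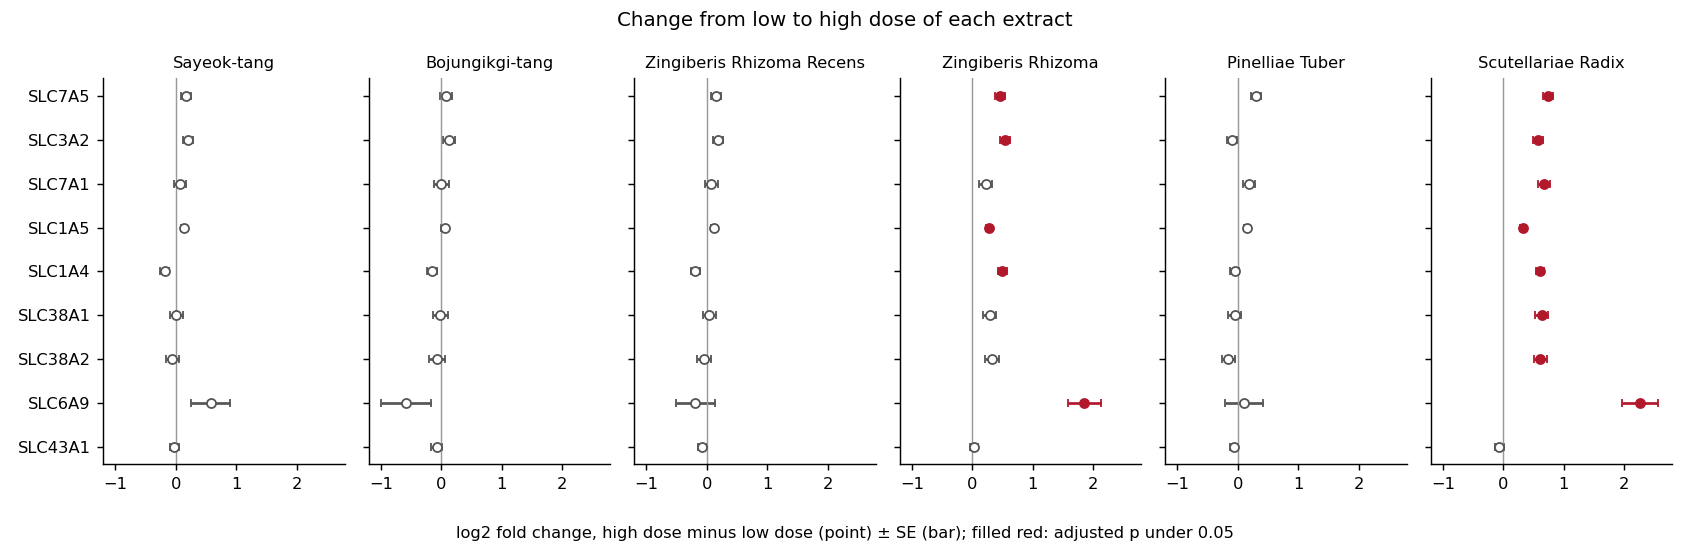
log2 fold change from low to high dose (point) and its SE (bar) for each transporter and each replicated extract; filled red points had an adjusted p under 0.05. Scutellariae Radix has 8 filled points and Zingiberis Rhizoma 5, and the other 4 extracts have none.

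Fresh ginger, the same rhizome undried, gave lower levels than dried ginger at the same dose. All 9 transcripts lay lower in every fresh ginger library than in every dried ginger library, a separation that was not counted over all genes. Of these, 4 passed the test, where 1.63% of all genes were lower: SLC1A4 (9.99, 10.8 and 9.42 CPM; log2 −0.66, SE 0.070), SLC6A9 (1.01, 0.433 and 0.521 CPM; −1.89, SE 0.28), SLC3A2 (184, 172 and 174 CPM; −0.41, SE 0.082) and SLC7A5 (311, 303 and 288 CPM; −0.31, SE 0.083). The call of SLC7A5 (edgeR adjusted p = 0.0289) ended when fresh ginger high 2, fresh ginger high 3, dried ginger high 1 or dried ginger high 2 was left out, at log2 values of −0.32 to −0.27. SLC1A5 (−0.17), SLC38A2 (−0.36), SLC38A1 (−0.24), SLC7A1 (−0.14) and SLC43A1 (−0.15) were below but not past the test. Without the 3 libraries that stood apart 8 of the 9 were called, while calls over all genes went from 379 to 1018. Within fresh ginger edgeR called none of the 9 from low to high dose, where 0.489% of all genes were called. At an unadjusted p under 0.05, a threshold at which all genes were not counted, there were 3, and DESeq2 called 0. Without the libraries that stood apart 2 were called, while calls over all genes went from 82 to 430. The dose effect itself, high minus low, was larger in dried than in fresh ginger for SLC1A4 by log2 0.69 (SE 0.099) and for SLC6A9 by 2.04 (SE 0.43). Those 2 of the 9 compare with 0.501% of all genes. Without the libraries that stood apart 6 were called, while calls over all genes in either direction went from 108 to 355.

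Scutellariae Radix and Pinelliae Tuber, which share a code set, were compared at the high dose. Levels of 8 of the 9 were higher with Scutellariae Radix, where 9.90% of all genes were. SLC3A2 differed by log2 0.87 (SE 0.083) with Pinelliae Tuber at 164, 109 and 169 CPM, and SLC38A2 by 0.73 (SE 0.11) with Pinelliae Tuber at 233, 107 and 226 CPM. In both genes the second value comes from the Pinelliae Tuber library that stood apart, which also held SLC38A1 at 282 CPM beside 454 and 405, and SLC7A5 at 365 CPM beside 279 and 278. Without the stand-apart libraries the differences were 0.74 for SLC3A2, 0.48 for SLC38A2, 0.40 for SLC38A1 (0.53 with them) and 0.62 for SLC7A5 (0.41 with them), and 8 calls held. SLC7A1 differed by 0.31 (edgeR adjusted p = 0.0301). Its call ended without Pinelliae Tuber high 1 or high 3, or any 1 of the Scutellariae Radix high libraries, at 0.27 to 0.32. SLC1A4 (0.48), SLC6A9 (1.71) and SLC1A5 (0.19) made up the 8, and SLC43A1 differed by −0.01 (SE 0.070). A fit of the 6 libraries alone called 3 of the 9, while calls over all genes in either direction went from 3828 to 379.

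The rise from low to high dose was larger for Scutellariae Radix than for Pinelliae Tuber in 7 of the 9, where 4.24% of all genes had a larger one. The differences of the dose effects were 2.17 for SLC6A9, 0.77 for SLC38A2, 0.69 for SLC38A1, 0.66 for SLC3A2, 0.66 for SLC1A4, 0.49 for SLC7A1 and 0.45 for SLC7A5 on the log2 scale. SLC1A5 was at 0.17 (SE 0.071, edgeR adjusted p = 0.13). The SLC7A1 difference lost its call without Pinelliae Tuber low 2 or low 3 or Scutellariae Radix high 2 or high 3 (0.46 to 0.49), and was 0.25 without Scutellariae Radix low 3. Without the libraries that stood apart 8 were called, with 0.34 for SLC38A1, 0.46 for SLC38A2 and 0.32 for SLC7A1. Calls over all genes in either direction then went from 1606 to 1502. With the libraries of these 4 groups alone, edgeR called 0 of the 9, against 8 by DESeq2 on all libraries. Over all genes these fits called 128 and 1912 in either direction. From low to high dose of Pinelliae Tuber edgeR called none of the 9, where 1.78% of all genes were called. There 2 had an unadjusted p under 0.05, a threshold at which all genes were not counted, and DESeq2 called 2.

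No transporter was called between doses of the formulas. Neither Sayeok-tang (0.382% of all genes called) nor Bojungikgi-tang (0.0656%) had one called by edgeR between high and low dose, with 4 and 0 at an unadjusted p under 0.05. None was called between the formulas at the high dose (0.00597%), nor in the difference of their dose effects (0% of all genes), with 1 at an unadjusted p under 0.05 in each. DESeq2 called 0 in these 4 comparisons. Without the libraries that stood apart, none of which is a formula library, 3 were called between the Sayeok-tang doses. Calls over all genes then went from 64 to 361. SLC7A5 was at 294, 313 and 305 CPM with high-dose Sayeok-tang and at 295 and 297 CPM with high-dose Bojungikgi-tang. SLC3A2 was at 195, 180.5 and 176 CPM and at 171 and 176 CPM. The log2 difference of high-dose Sayeok-tang from high-dose Bojungikgi-tang was 0.04 for SLC7A5 and 0.08 for SLC3A2. Against vehicle the high doses of Sayeok-tang (2.85% of all genes called) and Bojungikgi-tang (0.626%), the medium dose of Sayeok-tang (0.793%) and the low dose of Scutellariae Radix (0.382%) had no transporter called by edgeR. At an unadjusted p under 0.05 there were 4, 2, 4 and 5, and DESeq2 called 1, 0, 0 and 1. How many of all genes had an unadjusted p under 0.05 was not counted, so the numbers at that threshold have no share beside them.

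A second pattern set the low-dose groups of every replicated extract apart from vehicle in SLC1A4, SLC38A2 and SLC1A5. How many of all genes separated from vehicle in this way was not counted, so it cannot be called particular to transporters. SLC1A4 ran from 8.91 to 12.8 CPM (median 11.6) over the 17 replicated low-dose libraries, above all 3 vehicle libraries (8.41 to 8.82 CPM). SLC38A2 ran from 181 to 244 CPM (median 222) at the low doses, above vehicle at 153 to 178 CPM. SLC1A5 ran from 719 to 817 CPM (median 762), below vehicle at 839 to 863 CPM. At the high doses SLC1A4 was above vehicle in all 17 libraries (9.42 to 16.9 CPM), but SLC1A5 (787 to 950.3 CPM) spanned it. SLC38A2 (107 to 315 CPM) lay below vehicle only in Pinelliae Tuber high 2, a library that stood apart. Every other high-dose library held SLC38A2 above vehicle, the lowest at 194.6 CPM with Bojungikgi-tang. SLC1A4 was called higher than vehicle with the low doses of Sayeok-tang (0.33), Bojungikgi-tang (0.40), fresh ginger (0.38), dried ginger (0.35) and Pinelliae Tuber (0.44). SLC38A2 was called higher with the low doses of Sayeok-tang (0.40), fresh ginger (0.44) and dried ginger (0.43), and SLC1A5 lower with the same 3 (−0.20, −0.21 and −0.19). These comparisons share the 3 vehicle libraries and the difference in code sets, and which of treatment and code set they follow cannot be told apart. Leaving out vehicle 1 or vehicle 2 ended every one of the SLC38A2 calls among them at log2 values of 0.37 to 0.44. The SLC1A5 calls ended in the same way, as with other single libraries, at −0.21 to −0.17. Without all 3 libraries that stood apart, vehicle 1 among them, these SLC38A2 and SLC1A5 calls held, at 0.37 to 0.42 and −0.19 to −0.17, with edgeR adjusted p-values of 1.13e-05 to 0.00665. The SLC1A4 calls of the gingers and Pinelliae Tuber held with each library left out. Those of the formulas did not: the Sayeok-tang call ended without low 1 (0.29) and the Bojungikgi-tang call without low 2 or low 3 (0.38 and 0.44).

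Transporters called against vehicle, with the share of all genes called, numbered 3 of 9 at the low doses of Sayeok-tang (3.30%), fresh ginger (3.10%) and dried ginger (1.99%). They numbered 1 of 9 at the low doses of Bojungikgi-tang (0.424%) and Pinelliae Tuber (0.549%). At the medium doses they numbered 1 with Bojungikgi-tang (1.49%), fresh ginger (2.16%) and dried ginger (1.06%), which was SLC1A4 each time (0.32, 0.40 and 0.44). Pinelliae Tuber medium had 2 (2.11%), SLC1A4 (0.44) and SLC38A2 (0.41). At the high doses fresh ginger had 2 (6.36%), SLC38A2 (0.40) and SLC43A1 (−0.24), and Pinelliae Tuber had 2 (5.12%), SLC1A4 (0.39) and SLC3A2 (−0.29). The SLC3A2 call ended without vehicle 1, vehicle 2 or Pinelliae Tuber high 2 (−0.31 to −0.16), and the value was −0.09 without the 3 libraries that stood apart. The SLC43A1 call ended without vehicle 1 or any 1 of the fresh ginger high libraries (−0.25 to −0.17). The Bojungikgi-tang medium call ended without any 1 of its libraries or those of vehicle (0.26 to 0.38). The SLC38A2 calls ended without vehicle 1 or vehicle 2, among others (0.36 to 0.41).

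Coptidis Rhizoma gave the highest level of each of the 9 in the series, from 1 library per dose and thus with no test. The 320 µg/mL library held 8 of these levels and the 64 µg/mL library that of SLC43A1. At 320 µg/mL 6 of the 9 were past 2-fold above the vehicle mean (log2 ratio past 1 after adding 0.5 CPM to both), where 6.90% of all genes were. SLC6A9 was at 69.5 CPM (1771 counts, exact 95% interval 66.3 to 72.8 CPM, which covers counting error only). That is 138-fold a vehicle mean of 0.502 CPM, which rests on 8 to 19 counts per library. This fold and those below are plain ratios, without the added 0.5 CPM. CCDC24 on the opposite strand was at 6.55 CPM in the 320 µg/mL library, the highest of the 60 libraries. SLC1A4 was at 57.9 CPM (6.68-fold), SLC38A2 at 715 CPM (4.33-fold), SLC3A2 at 673 CPM (3.69-fold), SLC7A5 at 877 CPM (3.04-fold) and SLC38A1 at 806 CPM (2.27-fold). Mitochondrial genes took 3.44% and ribosomal protein genes 6.69% of the counts in this library, which lie −6.73 and 6.49 median absolute deviations from the medians of the replicated libraries, and their part in its values was not tested. SLC7A1 at 1034 CPM (1.79-fold) and SLC1A5 at 1286 CPM (1.52-fold) stayed under 2-fold. Each of these 8 exceeded its highest value among the 54 replicated libraries.

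The 3 Coptidis Rhizoma doses formed a graded series for 8 of the 9, an order that was not counted over all genes. At 64 µg/mL 3 of the 9 were past 2-fold, where 0.817% of all genes were: SLC6A9 at 9.75 CPM (188 counts), SLC1A4 at 33.1 CPM and SLC7A5 at 589.5 CPM. SLC3A2 was at 298 CPM, SLC38A2 at 288, SLC38A1 at 488, SLC7A1 at 878 and SLC1A5 at 1100.5 CPM. SLC43A1 peaked here at 58.5 CPM (exact 95% interval 55.2 to 62.0), against 36.2 CPM at the low and 36.8 CPM at the high dose. Vehicle held it at 33.9 to 37.3 CPM, and its highest value in the 54 replicated libraries was 37.3 CPM. At 12.8 µg/mL 1 of the 9 was past 2-fold on the pseudocount scale, where 0.191% of all genes were. That was SLC6A9 at 1.61 CPM, or 29 counts. SLC7A5 was then at 302 CPM and SLC3A2 at 179 CPM, near vehicle. Mitochondrial genes took 15.2% of the counts in this low-dose library, and their part in its values was not tested.

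Zizyphi Fructus, coded with Coptidis Rhizoma, moved none of the 9 past 2-fold at any dose, where 0.549%, 0.424% and 0.376% of all genes were past it at the high, medium and low doses. SLC7A5 was at 287, 274 and 262 CPM from high to low dose and SLC3A2 at 161, 162 and 161 CPM. SLC1A4 was at 13.2, 12.1 and 10.6 CPM and SLC38A2 at 218, 208 and 223 CPM, above vehicle as in the replicated low-dose groups. SLC6A9 was at 0.734, 0.776 and 0.596 CPM, 14 to 21 counts.

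**Figure D4:**
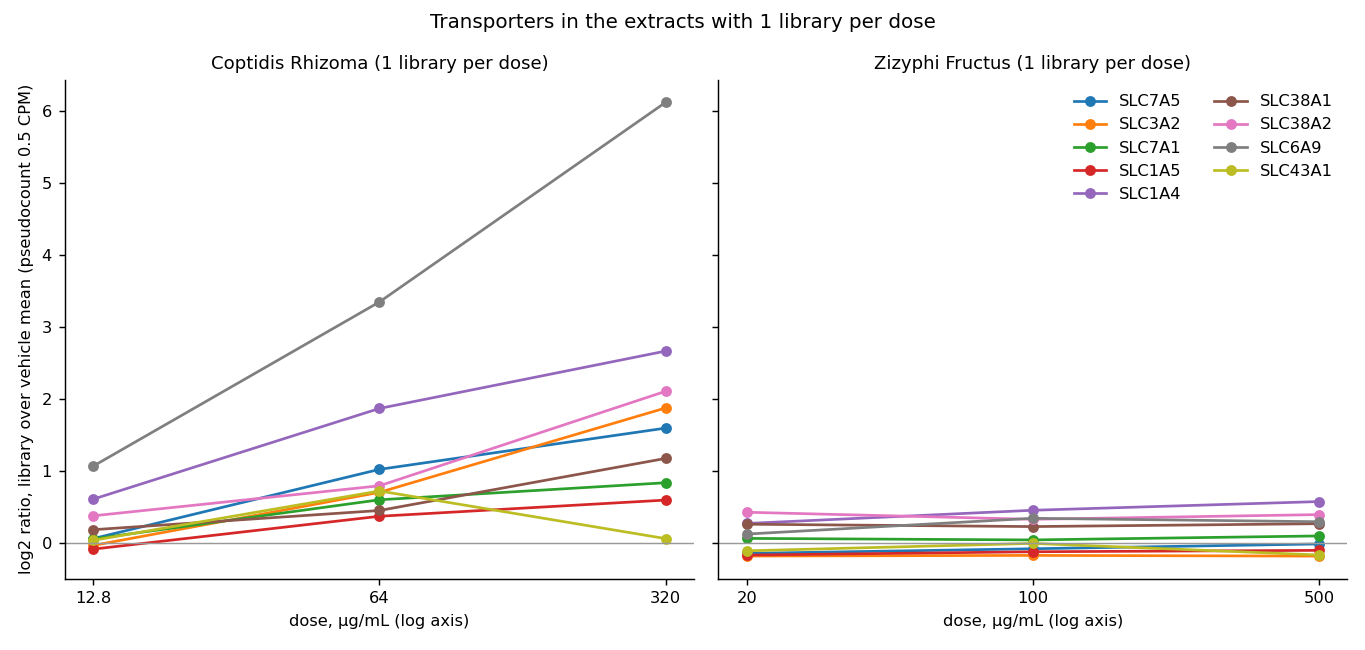
log2 ratio of each transporter to the vehicle mean (pseudocount 0.5 CPM) against dose in µg/mL on a log axis, for the 2 extracts with 1 library per dose; each point is 1 library. With Coptidis Rhizoma SLC6A9 reaches 6.13 and SLC1A4 2.67 at 320 µg/mL and SLC43A1 peaks at 64 µg/mL; with Zizyphi Fructus no point passes 1.

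Other genes of the pathway were read from lists chosen with earlier results of these data known, and all counts below are at an edgeR adjusted p under 0.05 over all genes. From low to high dose 10.7% of all genes rose and 11.7% fell with Scutellariae Radix, and 2.30% rose and 2.04% fell with dried ginger. Without the 3 libraries that stood apart the number of all genes called in either direction went from 3765 to 3422 and from 727 to 1795. Of 35 known ATF4 targets that are not transporters, 32 were tested. From low to high dose of Scutellariae Radix 23 rose and none fell, with a median log2 difference of 0.36 beside −0.02 over all genes. ASNS, which makes asparagine, went from 72.5 to 139 CPM (log2 0.96, SE 0.06), and TRIB3, a pseudokinase that restrains ATF4 activity, from 51.9 to 103 CPM (1.00, SE 0.07). ATF3, a stress transcription factor, went from 2.85 to 7.88 CPM (1.49, SE 0.14), and DDIT4, an inhibitor of mTORC1, from 21.5 to 40.5 CPM (0.94, SE 0.09). From low to high dose of dried ginger 19 rose and none fell (median 0.30 beside 0.00). ASNS went from 66.3 to 130 CPM (1.00, SE 0.06), TRIB3 from 46.4 to 71.9 CPM, PSAT1 of serine synthesis from 111 to 167 CPM, and CHAC1, which degrades glutathione, from 2.42 to 7.08 CPM (1.57, SE 0.16). With fresh ginger edgeR called none of the 32 from low to high dose, and 0 had an unadjusted p under 0.05. At the high dose 19 were lower with fresh than with dried ginger. Between the Pinelliae Tuber doses TRIB3 (−0.45) and DDIT4 (−0.51) were lower at the high dose and none was higher, where 1.78% of all genes were called. That high dose includes a library that stood apart. Without the 3 such libraries the number of all genes called there went from 299 to 130. Without the 3 libraries that stood apart, 26 of the list rose with Scutellariae Radix and 24 with dried ginger. In the Coptidis Rhizoma high-dose library 30 of the 32 were past 2-fold above vehicle, where 6.90% of all genes were. The median log2 ratio of the 32 was 2.38 beside 0.04 over all genes. At the medium dose 17 were past 2-fold above, where 0.817% of all genes were, and at the low dose 2, where 0.191% were.

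The 29 other amino acid transporters, 22 of them tested, were divided. From low to high dose of Scutellariae Radix 5 rose and 2 fell (median 0.09), or 5 and 4 without the libraries that stood apart (median 0.02). SLC7A11, the cystine-glutamate exchanger and another partner of SLC3A2, went from 157 to 471 CPM (log2 1.61, SE 0.12), and the neutral amino acid carriers SLC38A5 (52.4 to 67.6 CPM) and SLC38A4 (2.91 to 4.95 CPM) rose. SLC3A1, the heavy chain of the renal cystine carrier, fell from 3.26 to 1.49 CPM. With dried ginger 3 rose, SLC38A4 (3.38 to 9.76 CPM; 1.55), SLC7A11 (160.0 to 357 CPM; 1.19) and SLC38A5, and 1 fell, the proline carrier SLC6A20 (−0.65). SLC7A11 and SLC38A4 were the 2 of this list lower with fresh than with dried ginger (−0.70 and −0.94). In the Coptidis Rhizoma high-dose library 1157 of 16763 genes were past 2-fold above vehicle and 904 past 2-fold below it. SLC7A11 was the 1 member of the list past 2-fold above vehicle, at 1035 against 143 CPM. SLC38A5 was the 1 past 2-fold below it, at 21.1 against 54.5 CPM.

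Of 28 tested sensors and kinases of amino acid supply, 3 rose, 10.7% as over all genes, and 6 fell, 21.4%, from low to high dose of Scutellariae Radix. SESN1, a sestrin of the leucine-sensing branch, fell from 35.8 to 19.2 CPM (log2 −0.88, SE 0.08), and RRAGA, LAMTOR4 and LAMTOR2, parts of the lysosomal platform of mTORC1, fell by 0.31, 0.62 and 0.44. Dried ginger lowered SESN1 (37.2 to 24.3 CPM, −0.59) and raised none of the list. ATF4 itself went from 236 to 274 CPM there, with an edgeR adjusted p of 0.14. Without the libraries that stood apart 1 rose and 4 fell with Scutellariae Radix and 1 rose and 1 fell with dried ginger. Of 18 tested genes of amino acid metabolism downstream of uptake, 1 rose (5.56%) and 4 fell (22.2%) with Scutellariae Radix, or 5 and 4 without the libraries that stood apart. GLUL, glutamine synthetase, fell from 172 to 132 CPM (−0.37, SE 0.04) and, with dried ginger, from 185 to 147 CPM (−0.31, SE 0.04). Of the 9 colon epithelial markers 1 rose and 2 fell with Scutellariae Radix from low to high dose, and 1 rose and 1 fell with dried ginger. Against vehicle 1 rose and 4 fell at the high dose of either extract, where 12.1% of all genes fell with Scutellariae Radix and 6.33% with dried ginger. Without the libraries that stood apart 1 rose and 1 fell between the Scutellariae Radix doses, and 1 rose and 3 fell between those of dried ginger. Against vehicle 1 rose and 6 fell with either. Calls over all genes against vehicle then went from 3953 to 5171 with Scutellariae Radix and from 2199 to 3509 with dried ginger. The part of these markers in the results was not tested. In bulk RNA, a change in the make-up of the culture and a change per cell cannot be told apart.

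**Figure D5:**
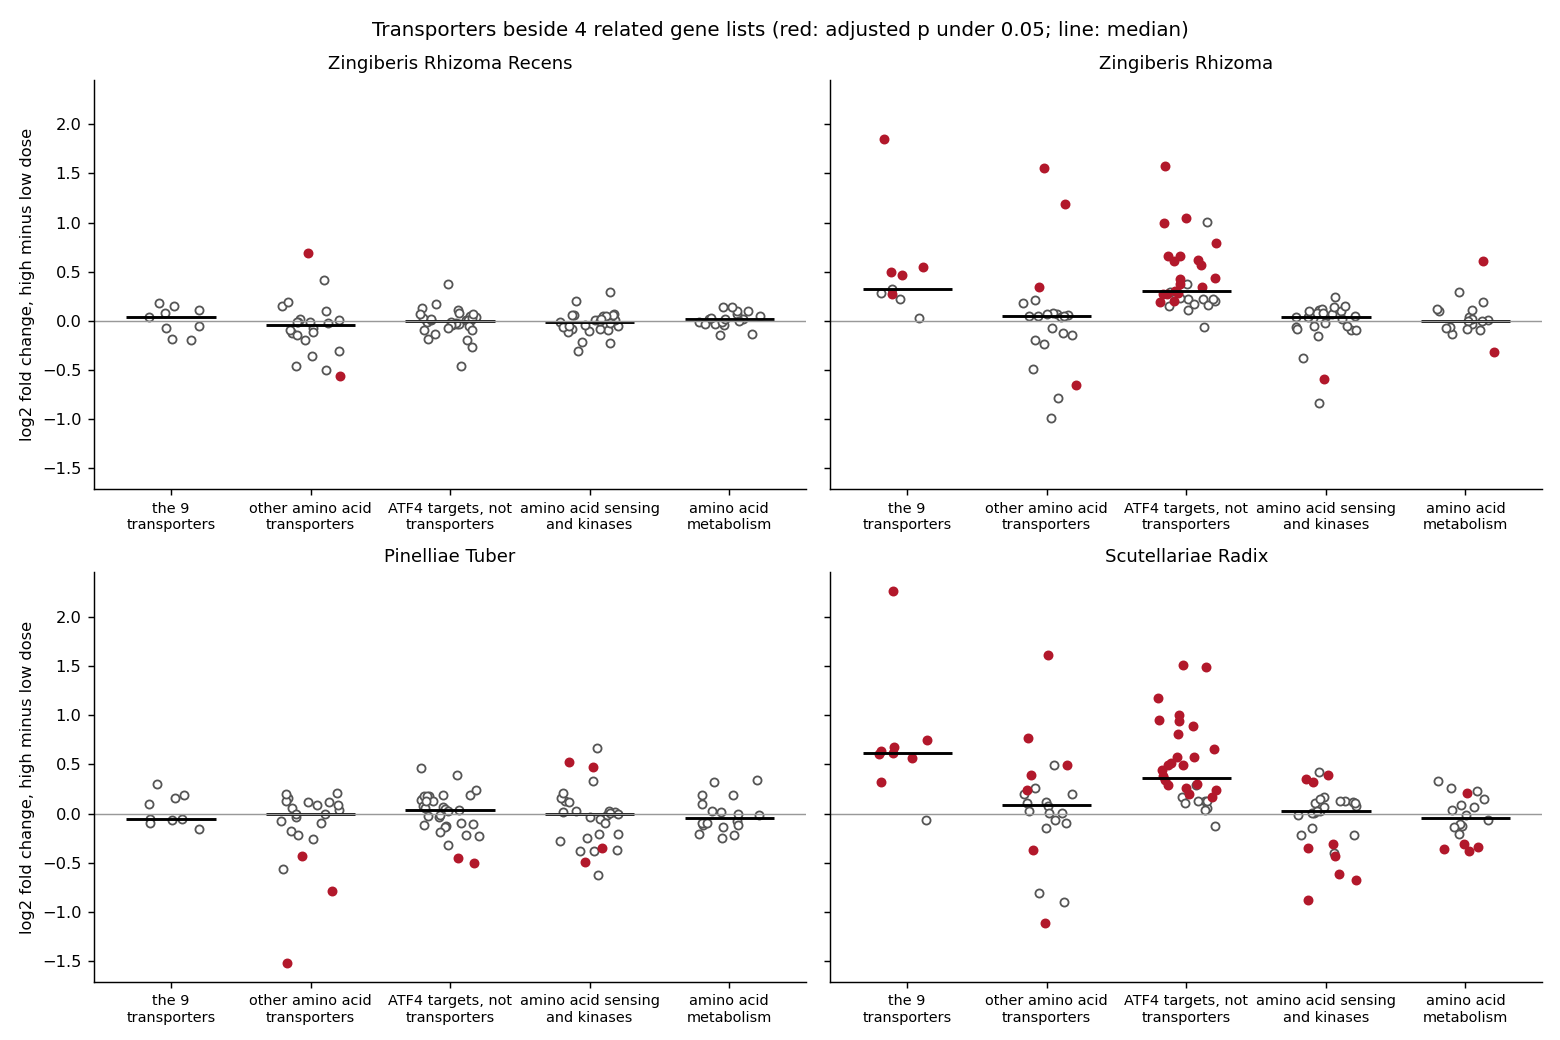
log2 fold change from low to high dose for the 9 transporters and 4 related lists (each point a gene, red where the adjusted p is under 0.05, line at the median) for 4 extracts. Medians of the transporters and of the ATF4 targets that are not transporters lie above 0 with Zingiberis Rhizoma and Scutellariae Radix and near 0 with Zingiberis Rhizoma Recens and Pinelliae Tuber.

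Across the 19 replicated group means (TMM log2 CPM) the 8 transporters other than SLC43A1 correlated pairwise with Pearson r of 0.44 to 0.94 (median 0.75 over 28 pairs). The highest was SLC7A5 with SLC1A5. SLC43A1 correlated with the others at −0.32 to 0.03. The 19 points share extracts, vehicle and library make-up, so these values are descriptions without a test. Over 10744 genes, those whose group means were most like SLC7A5 were NTSR1 (r = 0.98), ABLIM3 (0.97), MAPRE3 (0.96), ADAM19 (0.96) and TKT (0.96). The most like gene was MAFG for SLC3A2 (0.98), CDCP1 for SLC7A1 (0.97), TKT for SLC1A5 (0.94) and SPIRE1 for SLC1A4 (0.90). It was CANX for SLC38A1 (0.97), DNAJC3 for SLC38A2 (0.97), AARS for SLC6A9 (0.93) and PRSS22 for SLC43A1 (0.87). AARS is the 1 of these genes that stands on the list of ATF4 targets.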

How the data were processed

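The 60 libraries came from 1 µg of RNA each and a strand-keeping kit, sequenced as 100-base pairs. The submitters' processing notes name RSEM 1.3.3, STAR 2.7.3a, FastQC 0.11.9 and Trim Galore 0.6.5, with build hg38. The deposited values are expected counts per gene, estimated by the authors with RSEM, of which 90.0% to 92.1% per library are whole numbers. They were rounded to whole counts, and 210 further columns of the table were not used. At 1 CPM a library holds 18.0 to 35.8 counts. Positions and exon lengths come from GENCODE 29, and sequences from RefSeq. Vehicle is 0.1% DMSO in the labels and 2% in the series text. Doses under 500 µg/mL at the top follow an IC20, per the series text.

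All 54 replicated libraries (19 groups) were fitted together with edgeR 4.0.16 in R 4.3.3 (filterByExpr, TMM, quasi-likelihood test, robust, 35 residual degrees of freedom). P-values were adjusted by Benjamini-Hochberg over 16763 genes, with calls at 0.05. SE is the absolute log2 fold change divided by the square root of F. On simulated counts for dried ginger high against low dose (16393 genes), 78% of 1.5-fold and 99% of 2-fold changes were called, and unchanged genes made up 5.35% of calls. For the difference of dose effects between dried and fresh ginger these shares were 48%, 90% and 4.17%. The simulation gave every gene the same spread, held no library that stood apart and changed no gene of low count. Its shares need not hold for the 9 transporters. Single libraries were compared with the vehicle mean on log2(CPM + 0.5), and exact 95% intervals cover counting error only. Alternatives were DESeq2 1.42.0, its size factors, library totals, no filter, only the libraries compared, a replicate block and each library left out. Leaving out the 3 libraries that stand apart and the tests of differing dose effects were added after seeing the data. The members and lists were chosen with earlier results of these data known. The named genes are all 9 members, up to 4 genes of smallest p per list and comparison, and for likeness 5 genes for SLC7A5 and 1 for each other member, with mean log2 CPM above 2.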

Additional observations from a re-analysis of the deposited data

Results flagged for a closer look

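The change from low to high dose differed between paired extracts in 9 tests of the difference itself (edgeR, adjusted p under 0.05). The differences are on the log2 scale. Between dried and fresh ginger the dose effect was larger in dried ginger by 0.69 for SLC1A4 and by 2.04 for SLC6A9. Between Scutellariae Radix and Pinelliae Tuber it was larger in Scutellariae Radix by 0.45 for SLC7A5, 0.66 for SLC3A2, 0.49 for SLC7A1, 0.66 for SLC1A4, 0.69 for SLC38A1, 0.77 for SLC38A2 and 2.17 for SLC6A9. In each of these groups n = 3. The second set includes a Pinelliae Tuber high and a Scutellariae Radix low library that stood apart in make-up, whose part in the differences was not tested beyond leaving them out.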

How the results depend on the processing

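Of 74 pairs of transporter and comparison that passed the test, 53 passed with every single library left out, and none changed sign under any alternative run. The replicate numbers did not pair the libraries: in no comparison did all same-numbered pairs correlate above 0.1. A fit with the replicate block gave the same number of called transporters in all comparisons, for example 8 with the block and 8 without for Scutellariae Radix high against low dose. Counts of called transporters moved by over 1.5 times as follows, and the cause was not tested. Against vehicle, leaving out the 3 libraries that stood apart gave 2, 3 and 6 for high, medium and low Sayeok-tang (0, 0 and 3 with them), 4 and 2 for medium and low Bojungikgi-tang (1 and 1), 5 and 5 for medium and low fresh ginger (1 and 3), 3 and 5 for medium and low dried ginger (1 and 3), 4 and 4 for medium and low Pinelliae Tuber (2 and 1), and 8 and 3 for medium and low Scutellariae Radix (5 and 0). Between doses it gave 3 for Sayeok-tang (0), 2 for fresh ginger (0) and 8 for dried ginger (5). It also gave 8 for fresh against dried ginger (4) and 6 for the difference of their dose effects (2). In all of these comparisons the number of all genes called rose too. It went from 477 to 1368 for high Sayeok-tang, from 1598 to 3024 for medium Scutellariae Radix and from 379 to 1018 for fresh against dried ginger. Only the libraries compared gave 1 and 1 for high and medium Sayeok-tang, 0 for medium and low Bojungikgi-tang, medium dried ginger and high and low Pinelliae Tuber, 3 between the Sayeok-tang doses, 1 and 8 between those of fresh and dried ginger, 4 between those of Scutellariae Radix, 8 for fresh against dried ginger, 3 for Scutellariae Radix against Pinelliae Tuber, and 6 and 0 for the differences of dose effects of the gingers and of that pair. These fits hold fewer libraries. In them the number of all genes called moved both ways, from 3765 to 310 between the Scutellariae Radix doses and from 727 to 1832 between those of dried ginger. No filter gave 2 and 1 for high and medium Sayeok-tang, 3 for medium fresh ginger, 2 for medium dried ginger, 2 for low Pinelliae Tuber, 1 for low Scutellariae Radix and 1 between the Pinelliae Tuber doses. DESeq2 gave 1 for high Sayeok-tang, 2 for medium Bojungikgi-tang, 4 for medium fresh ginger, 3 for low Pinelliae Tuber, 1 for low Scutellariae Radix and 2 between the Pinelliae Tuber doses. Library totals gave 1 for low Sayeok-tang and 1 for medium Pinelliae Tuber. The number of all genes called also rose in the comparisons named for no filter and DESeq2, and fell in those named for library totals. With each library left out in turn the counts against vehicle ran from 0 to 3 for low Sayeok-tang, 0 to 0 for medium and 0 to 1 for low Bojungikgi-tang, 0 to 3, 1 to 4 and 1 to 4 for high, medium and low fresh ginger, 1 to 3 for low dried ginger, 1 to 2 for high and medium Pinelliae Tuber, and 2 to 5 and 0 to 2 for medium and low Scutellariae Radix. Between the Pinelliae Tuber doses they ran from 0 to 3. Values that changed sign belonged to differences that were not called. SLC38A1 in high Pinelliae Tuber against vehicle was −0.0014 without high 1 (0.12 in the full fit), and ran from −0.0014 to 0.25 with each library left out. SLC38A1 in low Scutellariae Radix against vehicle was −0.06 without vehicle 1, −0.11 without low 1 and −0.13 without low 2 (0.01 in the full fit), and ran from −0.13 to 0.24 with each library left out. SLC38A2 between the Pinelliae Tuber doses was 0.079 without high 2 and 0.081 without the libraries that stood apart (−0.16 in the full fit), and ran from −0.32 to 0.079 with each library left out. Of 54 single-library values, 3 moved beyond their counting interval with a pseudocount of 0.1 CPM and 32 with TMM scaling. Depth limits SLC6A9 most, with 3 to 73 counts in the replicated libraries.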
